A study of Mus musculus with 24 samples.

Results

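The erythroid genes described here are 32 genes of red cell formation: globin and its chaperone, the transcription factors of the lineage, the enzymes of haem synthesis, and the proteins of the red cell membrane. They were chosen by gene symbol from a list, which was set with earlier results of these data known. Of the 32, 30 had a probe set of their own among the 17097 genes tested. Ahsp, the chaperone of free alpha globin, and Trim58, a ubiquitin ligase of late erythroblasts, had no probe set with a single symbol and were not analysed here. A gene with several probe sets was read from the one with the largest SD around the means of the cell-line arrays and of the tumours.

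RNA of 24 mouse samples was hybridised to Affymetrix arrays. BKO408 is a preB-ALL line, a leukaemia of B-cell precursors, from Blnk knockout mice, and it was grown with 5 ng/ml IL-7. It was measured on 4 arrays after transduction with a retrovirus for LAP (BKO408 LAP cells) and on 4 arrays without that virus (BKO408 control cells), and both groups lack Blnk. LAP is an activating isoform made from Cebpb, the gene of C/EBPβ, and Blnk encodes an adaptor that carries signals from the pre-B-cell receptor. The 16 tumours were 4 LAP B-ALL and 4 LAP preB-ALL from mice with a Cebpb LAP transgene, 3 LAP/Blnk preB-ALL from mice with both that transgene and the homozygous Blnk knockout, and 5 Blnk preB-ALL from mice with the knockout alone. All tumours but those labelled Blnk carry the transgene. The sources used here do not give the tumours' tissue, their share of leukaemic cells, the mice's age, strain and sex, the promoter of the transgene, or any control virus in BKO408 cells. Nor do they say that replicates came from separate cultures or animals, and p-values then cover only the spread between samples, which may be technical.

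Every deposited value is a log ratio to a median, that of the 8 cell-line arrays or that of the 16 tumours, and was taken as log2, with the base of the log not given in the sources read. A value of 1 is thus a signal of the probe set 2 times the median of that set. No level of expression was kept, so genes are not ranked by abundance, and values of cells are not compared with values of tumours. The single Blnk probe set did not separate the genotypes: it was at 0.42 to 1.23 in LAP/Blnk and -0.68 to 0.94 in Blnk tumours, against -0.53 to 0.93 in LAP B-ALL and -0.06 to 1.45 in LAP preB-ALL. Of 3 Cebpb probe sets, the one of the largest spread was at -3.11 to 0.90 in LAP B-ALL, -0.03 to 0.51 in LAP/Blnk and -1.41 to 0.19 in LAP preB-ALL, against -4.50 to -1.94 in Blnk tumours, so 1 LAP B-ALL lay within the Blnk range. The other 2 Cebpb probe sets overlapped more widely, as the one at -0.36 to 1.77 in LAP B-ALL, -1.28 to 0.41 in LAP/Blnk and -0.43 to 1.59 in LAP preB-ALL, against -1.38 to 1.38 in Blnk tumours. Nothing read here says whether these probe sets lie in the deleted or the introduced sequence, and if they lie outside it they check no label. No level is kept, so B-lineage markers cannot be read as present or absent either.

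The libraries labelled LAP B-ALL 4 and LAP preB-ALL 4 went against their groups. Over all probe sets, LAP B-ALL 4 had Pearson's r of -0.08 to -0.04 with LAP B-ALL 1, 2 and 3, which had 0.81 to 0.84 with each other. LAP preB-ALL 4 had r of 0.80 to 0.84 with LAP B-ALL 1, 2 and 3, and of -0.14 to 0.31 with the other LAP preB-ALL. Whether these 2 are labelled as intended was not tested, and it bears on every value of both groups. Groups are kept as labelled, and comparisons are given with these 2 tumours and with each left out alone. A fit that left out 1 of these 2 in this way kept the other.

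Red cells form from bone marrow progenitors, and in mice also in the spleen. GATA1, TAL1 and KLF1 switch on the genes of the lineage, erythropoietin keeps the early erythroblasts alive through its receptor, and iron taken up with transferrin enters haem in the mitochondria. The late erythroblast fills with haemoglobin and lays a spectrin skeleton under a membrane rich in the anion exchanger before it loses its nucleus. B-lineage cells do not normally make haemoglobin.

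Promoters of the members were read from RefSeq (build GRCm38.p6), as the 250 bases before and the 50 bases after each gene's start, and an entry was held for 24 of the 32 genes. The 5 printed here belong to the genes that the results turn on: alpha globin and Alas2, which passed the test among tumours, Klf1 and Rhag, which stood far apart in 4 tumours, and Gfi1b, which differed most in the cell line. Capitals mark the GATA motif (AGATAA or TGATAA) and the KLF motif (CCNCNCCC), each searched on both strands, with overlapping matches of the KLF motif run together.
Hba-a1 promoter, chr11:32283422-32283721, plus strand: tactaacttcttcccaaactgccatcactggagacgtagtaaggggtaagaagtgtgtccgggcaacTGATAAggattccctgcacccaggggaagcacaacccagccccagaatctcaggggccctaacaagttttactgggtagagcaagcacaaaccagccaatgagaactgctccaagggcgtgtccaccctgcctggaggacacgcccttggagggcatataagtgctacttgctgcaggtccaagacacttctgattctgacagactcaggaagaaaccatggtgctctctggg
Alas2 promoter, chrX:150547167-150547466, plus strand: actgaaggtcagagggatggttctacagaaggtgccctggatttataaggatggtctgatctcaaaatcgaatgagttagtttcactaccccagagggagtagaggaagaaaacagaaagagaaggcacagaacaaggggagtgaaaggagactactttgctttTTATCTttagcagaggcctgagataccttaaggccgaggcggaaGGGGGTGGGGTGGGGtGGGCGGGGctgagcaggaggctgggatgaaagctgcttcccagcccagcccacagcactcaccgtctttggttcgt
Klf1 promoter, chr8:84901732-84902031, plus strand: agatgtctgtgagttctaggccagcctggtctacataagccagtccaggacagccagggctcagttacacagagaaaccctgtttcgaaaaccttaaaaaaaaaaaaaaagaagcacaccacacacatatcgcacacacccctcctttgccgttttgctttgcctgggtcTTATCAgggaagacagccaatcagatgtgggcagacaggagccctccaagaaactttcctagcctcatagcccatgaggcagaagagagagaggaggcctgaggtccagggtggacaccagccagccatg
Rhag promoter, chr17:40810899-40811198, plus strand: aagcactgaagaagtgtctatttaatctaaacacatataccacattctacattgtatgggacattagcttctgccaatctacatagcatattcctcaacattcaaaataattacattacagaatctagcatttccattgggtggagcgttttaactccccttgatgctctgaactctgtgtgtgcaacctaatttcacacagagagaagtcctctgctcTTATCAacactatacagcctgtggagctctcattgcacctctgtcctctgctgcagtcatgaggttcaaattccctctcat
Gfi1b promoter, chr2:28621933-28622232, minus strand: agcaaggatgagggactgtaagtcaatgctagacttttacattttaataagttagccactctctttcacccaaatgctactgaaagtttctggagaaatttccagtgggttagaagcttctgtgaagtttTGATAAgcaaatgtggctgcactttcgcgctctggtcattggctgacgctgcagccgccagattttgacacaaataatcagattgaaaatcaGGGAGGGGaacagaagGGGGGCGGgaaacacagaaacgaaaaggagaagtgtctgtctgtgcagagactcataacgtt
The GATA motif was found in 15 of the 27 promoters of the members (55.6%), against 18.6% of all 32851 promoters of this length. The KLF motif was found in 18 of the 27 (66.7%), against 49.5% of all. Both motifs were found together in 7 of the 27 (25.9%), those of Alas2, Cpox, Epor, Gfi1b, Hemgn, Icam4 and Rhd, against 5.73% of all. A match is a description of the letters in this window.

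Erythroid genes stood apart in 4 of the 16 tumours, LAP B-ALL 1, 2 and 3 and LAP preB-ALL 4. The median over the 30 genes was 3.49, 3.71, 4.53 and 0.01 in LAP B-ALL 1 to 4, -0.15, -0.18 and -0.22 in the LAP/Blnk tumours, -0.16, -0.13, -0.08 and 4.20 in LAP preB-ALL 1 to 4, and 0.00, -0.06, -0.17, -0.15 and 0.07 in the Blnk tumours. The high values did not follow the labels: 3 of the 4 LAP B-ALL and 1 of the 4 LAP preB-ALL were high, and none of the 3 LAP/Blnk or the 5 Blnk tumours was. In 29 of the 30 genes these same 4 tumours held the 4 highest values, and Tfrc was the exception. They also held the 4 highest values for 767 of all 17097 genes (4.49%) and the 4 lowest for 498 (2.91%), so the 4 tumours differ from the other 12 well beyond the erythroid list. These 4 were noticed by their values, so no test is given for them. In bulk samples, more cells of a type and more RNA per cell cannot be told apart.

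**Figure D1:**
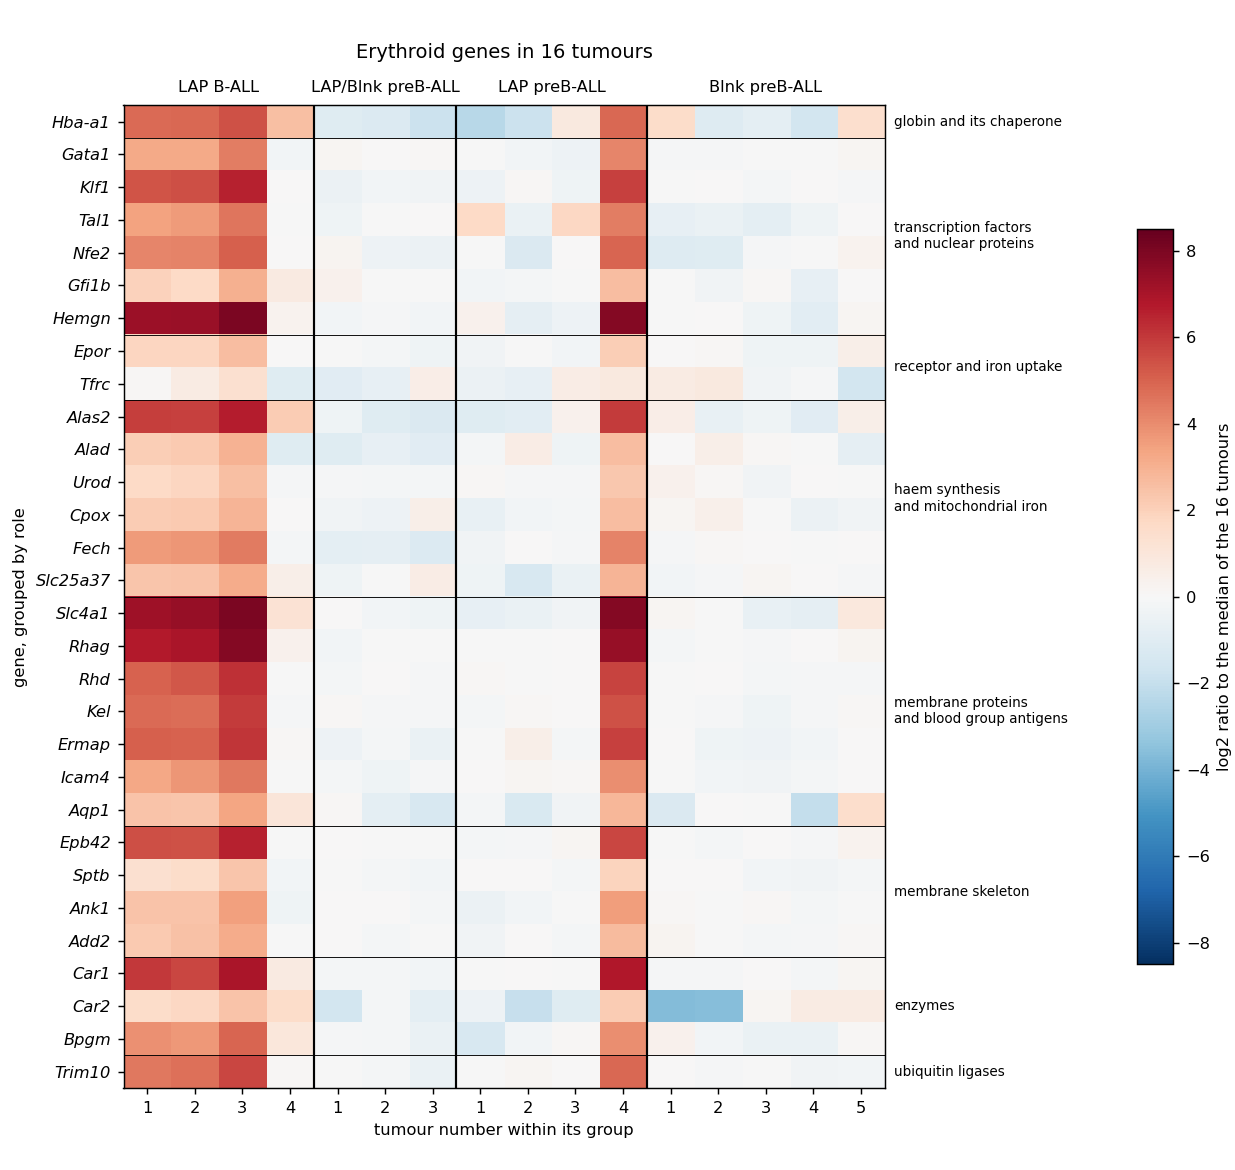
Log2 ratio to the median of the 16 tumours (colour) of each of the 30 erythroid genes (rows, grouped by role) in each tumour (columns, grouped by label). LAP B-ALL 1 to 3 and LAP preB-ALL 4 are red in nearly every row, while LAP B-ALL 4 is red mainly for Hba-a1, Alas2 and Car2.

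Among the 4 tumours the order was nearly fixed. LAP B-ALL 3 held the highest value of all tumours in 29 of the 30 genes, and LAP preB-ALL 4 in the remaining one, Ank1. LAP preB-ALL 4 lay above LAP B-ALL 1 and LAP B-ALL 2 in all 30 genes. LAP B-ALL 1 and 2 stayed close together, as with Rhag at 6.72 and 6.91 and Klf1 at 5.32 and 5.45.

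Alpha globin, the oxygen carrier's alpha chain, was measured by 3 probe sets of Hba-a1. The chosen probe set was at 4.85, 4.87, 5.42 and 2.55 in LAP B-ALL 1 to 4, -1.03, -1.17 and -1.85 in LAP/Blnk, -2.38, -1.80, 0.85 and 4.91 in LAP preB-ALL, and 1.57, -1.07, -0.85, -1.55 and 1.43 in Blnk tumours. All 4 LAP B-ALL were above every LAP/Blnk and every Blnk tumour, and the LAP preB-ALL group spanned nearly the whole range. The other 2 probe sets flattened at 1.88 to 1.97 in the 4 high tumours and read 1.63 and 1.56 in LAP B-ALL 4, so the size of the difference depends on the probe set. Hba-a1 has a near-identical copy, Hba-a2, and their signals may not be separable. The probe set named Hba-a2 stayed between -0.60 and 0.26 over the tumours.

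The transcription factors and nuclear proteins had 6 members, and all 6 had their 4 highest values in the same tumours. Hemgn, a nuclear protein of blood progenitors and a target of GATA1, had the largest SD over the tumours of all 30 genes, at 3.50. It was at 7.29, 7.33, 8.01 and 0.33 in LAP B-ALL 1 to 4, -0.25, -0.09 and -0.22 in LAP/Blnk, 0.38, -0.76, -0.42 and 7.80 in LAP preB-ALL, and -0.02, 0.02, -0.35, -0.93 and 0.20 in Blnk tumours. Hemgn separated the 4 tumours by a gap of 6.91 from the next one, LAP preB-ALL 1. Klf1, the activator of adult beta globin, was at 5.32 to 6.54 in the 4 tumours and at 0.11 or less in the other 12. Gata1, the master regulator of the lineage, was at 3.20 to 4.36, with 0.17 the next highest value, in Blnk 5. Nfe2, a globin gene activator shared with megakaryocytes, was at 4.14 to 5.10, against 0.32 or less elsewhere. Tal1, a partner of GATA1 that is also active in blood stem cells and in T-cell leukaemia, behaved less uniformly: it was at 3.39 to 4.55 in the 4 tumours, and also at 1.67 and 1.73 in LAP preB-ALL 1 and 3, whose list medians were near 0. Gfi1b, a repressor needed for red cells and platelets, was at 1.98, 1.73, 3.01 and 0.74 in LAP B-ALL 1 to 4, 0.39, -0.01 and -0.01 in LAP/Blnk, -0.25, -0.16, 0.00 and 2.65 in LAP preB-ALL, and -0.02, -0.33, 0.07, -0.70 and 0.00 in Blnk tumours. It lay closer to the other 12 than Klf1 or Hemgn did, with a gap of 0.99 to LAP B-ALL 4.

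**Figure D2:**
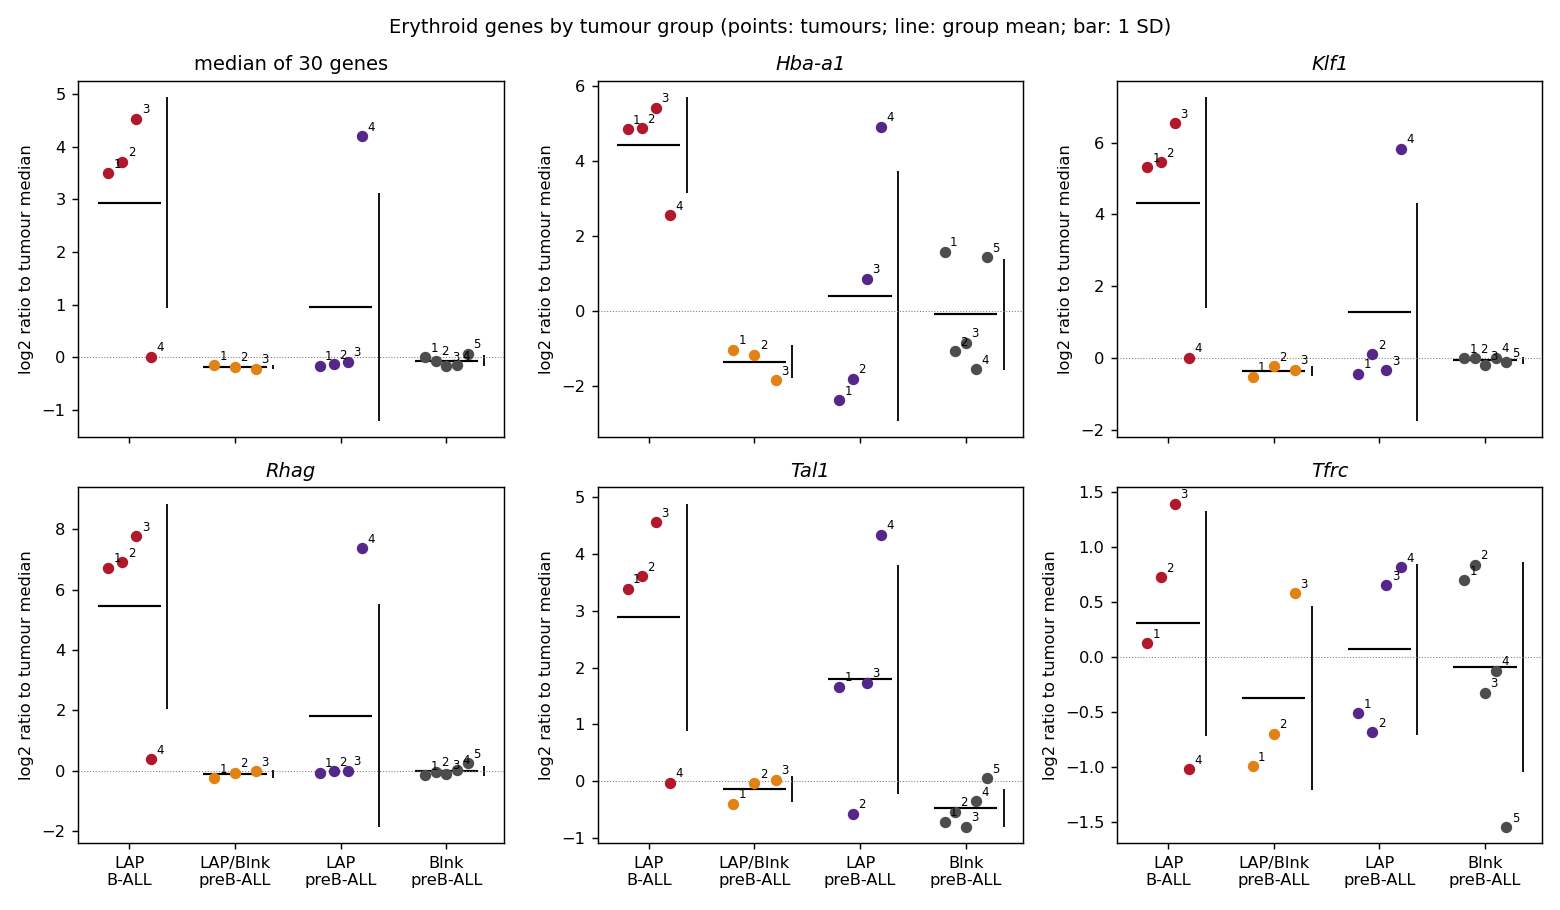
Log2 ratio to the tumour median (vertical axis) by tumour group, for the median of the 30 genes and for 5 single genes. Points are tumours with their numbers, lines are group means and bars are 1 SD. LAP B-ALL 4 falls away from its group in the median and in Klf1, Rhag and Tal1. It is the lowest of its group in Tfrc too, but there LAP B-ALL 1 to 3 and LAP preB-ALL 4 overlap with other tumours.

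The receptors gave both a member of the pattern and its exception. Epor, the erythropoietin receptor, was at 1.79 to 2.61 in the 4 tumours and at 0.47 or less elsewhere. Tfrc, the transferrin receptor that every dividing cell uses to take up iron, had the smallest SD of the 30 genes, at 0.85. It was at 0.12, 0.72, 1.39 and -1.02 in LAP B-ALL 1 to 4, -0.99, -0.69 and 0.58 in LAP/Blnk, -0.51, -0.68, 0.65 and 0.82 in LAP preB-ALL, and 0.70, 0.84, -0.32, -0.12 and -1.54 in Blnk tumours. All 4 groups overlapped, and Blnk 1 and 2, at 0.70 and 0.84, lay within the range of the 4 tumours, 0.12 to 1.39. So did LAP preB-ALL 3 at 0.65 and LAP/Blnk 3 at 0.58.

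Haem synthesis showed the pattern in all 6 members. Alas2, the erythroid first enzyme of the pathway, was at 5.87, 5.80, 6.65 and 2.14 in LAP B-ALL 1 to 4, -0.38, -1.06 and -1.21 in LAP/Blnk, -1.04, -0.87, 0.36 and 5.98 in LAP preB-ALL, and 0.60, -0.62, -0.36, -0.97 and 0.48 in Blnk tumours. As with Hba-a1, LAP B-ALL 4 lay between the 4 tumours and the rest. Alad, Urod and Cpox are later enzymes of the pathway that other cells use too. Alad reached 2.09 to 2.99 in the 4 tumours, against 0.62 or less elsewhere. Urod was at 1.67, 1.84, 2.59 and -0.12 in LAP B-ALL 1 to 4, -0.08, -0.16 and -0.14 in LAP/Blnk, 0.07, -0.10, -0.11 and 2.31 in LAP preB-ALL, and 0.37, 0.13, -0.27, 0.03 and -0.03 in Blnk tumours. Cpox was at 2.15, 2.24, 2.86 and 0.01 in LAP B-ALL 1 to 4, -0.33, -0.46 and 0.51 in LAP/Blnk, -0.61, -0.23, -0.18 and 2.65 in LAP preB-ALL, and 0.19, 0.41, -0.01, -0.51 and -0.30 in Blnk tumours. For both, LAP B-ALL 4 lay among the other tumours. Fech, which places iron into the finished ring, was at 3.59, 3.73, 4.40 and -0.19 in LAP B-ALL 1 to 4, -0.80, -0.80 and -1.18 in LAP/Blnk, -0.29, 0.03, -0.12 and 4.24 in LAP preB-ALL, and -0.09, 0.10, 0.00, 0.00 and 0.04 in Blnk tumours. The 3 LAP/Blnk tumours were the lowest for Fech of all 16. Slc25a37, the mitochondrial iron importer, was at 2.33 to 3.15 in the 4 tumours, but 2 further probe sets of it did not have them highest.

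The membrane proteins and blood group antigens had the same 4 tumours highest in all 7 genes, and Slc4a1 and Rhag had the largest SDs over the tumours after Hemgn, 3.49 and 3.23. Slc4a1, the anion exchanger band 3, was at 7.23, 7.39, 7.99 and 1.23 in LAP B-ALL 1 to 4, 0.06, -0.21 and -0.34 in LAP/Blnk, -0.70, -0.55, -0.27 and 7.80 in LAP preB-ALL, and 0.18, -0.06, -0.64, -0.75 and 0.87 in Blnk tumours. Rhag, the Rh-associated glycoprotein, was at 6.72, 6.91, 7.78 and 0.38 in LAP B-ALL 1 to 4, -0.25, -0.06 and -0.01 in LAP/Blnk, -0.06, -0.01, 0.01 and 7.38 in LAP preB-ALL, and -0.14, -0.03, -0.11, 0.04 and 0.25 in Blnk tumours. Both separated the 4 tumours by more than 5 units, and LAP B-ALL 4 was the next highest tumour for both. Rhd, the Rh antigen, was at 5.04, 5.26, 6.23 and -0.01 in LAP B-ALL 1 to 4, -0.18, 0.03 and -0.08 in LAP/Blnk, 0.10, -0.02, 0.04 and 5.77 in LAP preB-ALL, and -0.06, 0.01, -0.16, -0.11 and -0.07 in Blnk tumours. Kel and Ermap, which carry the Kell and Scianna blood groups in humans, were at 4.78 to 5.93 and 5.04 to 6.09 in the 4 tumours. Icam4, an adhesion molecule of erythroblasts, was at 3.30 to 4.51. Aqp1, a water channel also made by endothelium, was at 2.35 to 3.35, against 1.51 in Blnk 5 and -2.01 in Blnk 4.

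The membrane skeleton and the enzymes had the same 4 tumours highest in each of their 7 measured genes. Epb42, which ties the skeleton to band 3, was at 5.41 to 6.55 in the 4 tumours and at 0.27 or less elsewhere. Sptb (beta spectrin) and Add2 (beta adducin) reached 1.36 to 2.33 and 2.25 to 3.16. Ank1, the ankyrin that anchors spectrin, was at 2.43, 2.42, 3.50 and -0.34 in LAP B-ALL 1 to 4, 0.03, 0.01 and -0.17 in LAP/Blnk, -0.50, -0.23, -0.04 and 3.53 in LAP preB-ALL, and 0.10, -0.04, 0.08, -0.17 and -0.01 in Blnk tumours. Car1, the abundant carbonic anhydrase of red cells, was at 5.71 to 6.93, with 0.77 in LAP B-ALL 4. Bpgm, which makes the 2,3-bisphosphoglycerate that lowers haemoglobin's oxygen affinity, was at 3.85, 3.70, 4.97 and 0.99 in LAP B-ALL 1 to 4, -0.09, -0.18 and -0.57 in LAP/Blnk, -1.33, -0.21, 0.12 and 3.95 in LAP preB-ALL, and 0.39, -0.25, -0.56, -0.56 and 0.09 in Blnk tumours. Car2, a carbonic anhydrase of many cell types, was the member with the smallest gap: it was at 1.58, 1.77, 2.42 and 1.57 in LAP B-ALL 1 to 4, -1.54, -0.19 and -0.85 in LAP/Blnk, -0.40, -1.94, -1.02 and 2.18 in LAP preB-ALL, and -3.68, -3.64, 0.19, 0.69 and 0.68 in Blnk tumours. Blnk 1 and 2 were far below every other tumour for Car2. Trim10, a ubiquitin ligase needed for late erythroblasts, was at 4.49 to 5.70 in the 4 tumours and at 0.19 or less elsewhere.

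The probe sets not chosen gave the same picture for most genes. Over all 51 probe sets of the members, 45 had the same 4 tumours highest, as had 16 of the 21 that were not chosen. The 6 without it were the 3 of Tfrc, 2 of Slc25a37 and 1 of Fech.

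LAP B-ALL 4 was high for a few members and near 0 for most. Its highest values were 2.55 for Hba-a1, 2.14 for Alas2, 1.57 for Car2, 1.23 for Slc4a1, 1.04 for Aqp1 and 0.99 for Bpgm, while Klf1, Gata1, Tal1, Epb42, Fech, Trim10 and Rhd were at 0.01, -0.24, -0.02, -0.02, -0.19, 0.12 and -0.01. Only 5 of its 30 values were above 1, against 29, 29 and 30 in LAP B-ALL 1, 2 and 3 and 29 in LAP preB-ALL 4. The share of all genes above 1 was 3.73% in LAP B-ALL 4 and 5.01% to 6.15% in those 4.

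Hba-a1 also varied among the tumours without the high list median, and Alas2 varied with it. In the 8 Blnk knockout tumours, the 3 LAP/Blnk and the 5 Blnk together, Pearson's r between Hba-a1 and Alas2 was 0.96 (exact two-sided permutation test, p = 0.000223, adjusted p = 0.00647 over the 29 relations tested, n = 8). Spearman's rho was 0.98 (exact permutation p = 0.000397, adjusted p = 0.0115), and r was 0.85 without Blnk 1 and 5, the 2 tumours farthest from the median of Hba-a1. This set of tumours was chosen after the values were seen, each of its groups holds too few tumours for a value of its own, and the permutation treats both groups alike. None of the other 28 genes passed after adjustment: Bpgm came next with r of 0.86 (exact permutation p = 0.00536, adjusted p = 0.0777), and its r was 0.49 without Blnk 1 and 5. The 6 transcription factors and nuclear proteins had r of 0.58 for Hemgn, 0.35 for Klf1, 0.22 for Gfi1b, -0.03 for Gata1, -0.08 for Nfe2 and -0.13 for Tal1.

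Over all 12 tumours outside the 4, r with Hba-a1 was 0.95 for Alas2, 0.88 for Bpgm and 0.84 for Slc4a1, and among the nuclear proteins 0.58 for Gfi1b, 0.38 for Hemgn, 0.29 for Klf1, 0.17 for Nfe2, -0.02 for Tal1 and -0.32 for Gata1. These 12 were set apart by the values of the same genes, so these correlations are a description with no test. Without LAP B-ALL 4 and Blnk 1, the 2 farthest from their median, r was 0.94 for Alas2, 0.74 for Bpgm and 0.73 for Slc4a1.

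**Figure D3:**
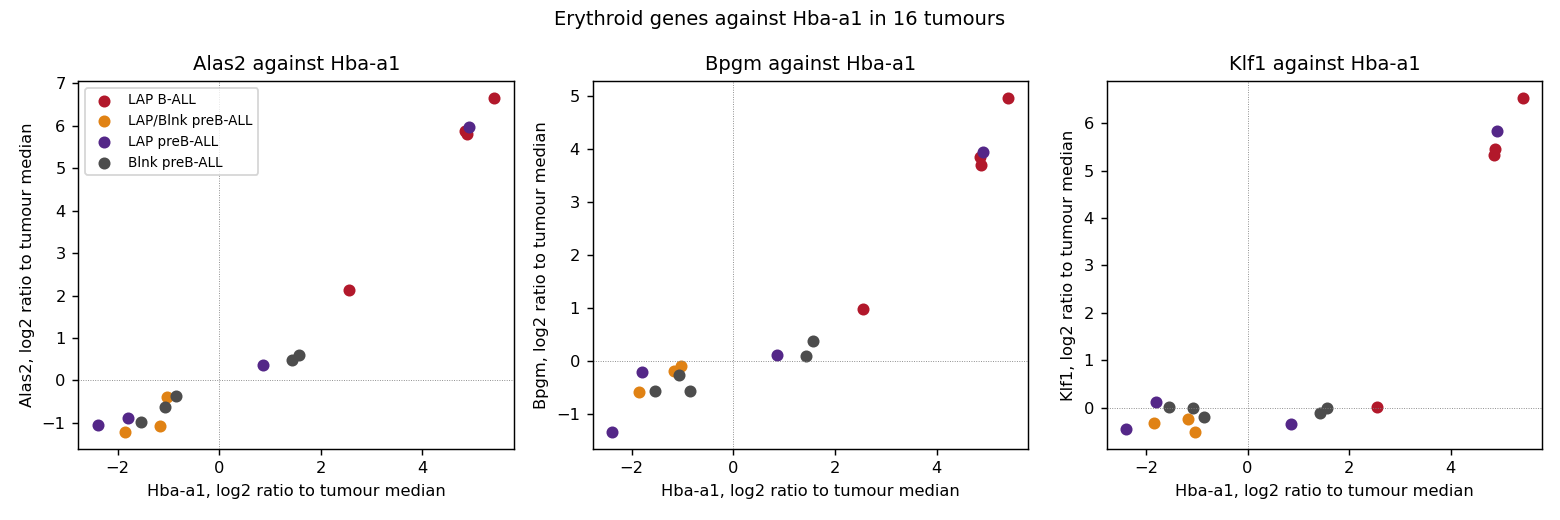
Alas2, Bpgm and Klf1 (vertical axes) against Hba-a1 (horizontal axes) in the 16 tumours, as log2 ratios to the tumour median, with colours for the groups. Alas2 and Bpgm climb with Hba-a1 also among the tumours outside the 4 at the upper right, while Klf1 stays near 0 there.

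The comparison of LAP B-ALL with LAP/Blnk preB-ALL called 2 of the 30 members, both higher in LAP B-ALL, against 3.52% of all genes called in either direction and 1.32% called higher. Hba-a1 averaged 4.42 ± 1.27 in LAP B-ALL (SD, n = 4) and -1.35 ± 0.44 in LAP/Blnk tumours (SD, n = 3), and rose by 5.77 ± 1.42 (SE, limma adjusted p = 0.0423). Alas2 averaged 5.12 ± 2.02 in LAP B-ALL and -0.89 ± 0.44 in LAP/Blnk tumours, and rose by 6.0 ± 1.42 (SE, limma adjusted p = 0.0374). The groups did not overlap for 16 of the 30 members, all higher in LAP B-ALL, against 10.9% of all genes. The median difference over the members was 3.33, against -0.01 over all genes, and 29 of 30 had an unadjusted p under 0.05, against 22.0% of all genes. The count rests on single tumours: without LAP B-ALL 4 it was 27 of 30, a description only, since that tumour was noticed by its values. That fit called 1980 of all 17097 genes, against 602 in the full fit. Without LAP B-ALL 1, 2 or 3 or any of the LAP/Blnk tumours 1, 2 or 3 the members' count was 0. Those fits called 246 to 274 of all genes.

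No member passed the threshold between LAP B-ALL and Blnk preB-ALL, where limma called 1.45% of all genes. The median difference over the members was 3.18, against -0.03 over all genes, and 29 of 30 had an unadjusted p under 0.05, against 21.2%. LAP B-ALL was split, and the list median of LAP B-ALL 4, 0.01, lay within the -0.17 to 0.07 of the Blnk tumours. Alas2 came nearest, at 5.29 ± 1.25 (SE, limma adjusted p = 0.0525), and Slc4a1 was at 6.04 ± 1.66 (SE, limma adjusted p = 0.0769). The groups did not overlap for 13 members, all higher in LAP B-ALL, against 3.36% of all genes: Hba-a1, Klf1, Gfi1b, Hemgn, Alas2, Slc25a37, Slc4a1, Rhag, Ermap, Car1, Car2, Bpgm and Trim10. Without LAP B-ALL 4 the count passing was 28 of 30, with 1835 of all 17097 genes called, against 248 in the full fit. LAP B-ALL 4 was noticed by its values, so this rise is a description.

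Within the LAP transgenic mice, B-ALL against preB-ALL gave no call among the members and 0.0% among all genes by limma, with 14 members at an unadjusted p under 0.05, against 11.0% of all genes. The median difference was 2.07, against -0.03 over all genes, and each group held tumours with high and with low list medians. Without LAP preB-ALL 4 the count was 8 of 30, with 291 of all 17097 genes called. Without LAP B-ALL 4 it was 0, with 5 of all genes called. Both tumours were noticed by their values, so these counts are a description.

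The 3 comparisons among preB-ALL gave no call among the members either. For LAP preB-ALL against Blnk preB-ALL, where 0.0819% of all genes were called, the median difference was 0.93 and turned to -0.07 without LAP preB-ALL 4, and 1 member, Tal1, had an unadjusted p under 0.05, against 13.2% of all genes. For LAP/Blnk against LAP preB-ALL, where 2.37% were called, it was -1.32 and became -0.08 without LAP preB-ALL 4, and no member had an unadjusted p under 0.05, against 18.0%. For LAP/Blnk against Blnk preB-ALL, where 0.0175% were called, it was -0.09, and no member had an unadjusted p under 0.05, against 5.78%. In that last comparison 3 members, Klf1, Fech and Car1, were lower in every LAP/Blnk tumour, against 2.69% of all genes so. Fech differed by -0.94 ± 1.03 (SE, limma adjusted p = 1), with the spread of all 4 tumour groups in its error. These comparisons share tumours with each other.

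Over all 4 tumour groups, limma's F-test called no member, against 2.65% of all genes, and 24 of the 30 had an unadjusted p under 0.05, against 21.8%. Without LAP B-ALL 4 the count was 23, with 1565 of all 17097 genes called, against 453 in the full fit. Without LAP preB-ALL 4 it was 20, with 849 of all genes called. As these tumours were noticed by their values, both counts are a description.

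Genes outside both erythroid lists that followed the median of the 30 genes most closely over the 16 tumours were 5430401H09Rik, Apol8, Cldn13, Mylk3, Apol11b, Btnl10, 1300017J02Rik, Sowaha, Pheta2 and Tspan8, with Pearson's r of 0.99 to 1.00. Apol11b, one of the mouse apolipoprotein L genes, was at 8.45 to 9.25 in the 4 tumours and at 0.20 or less in the other 12. These correlations rest on the 4 tumours. Within the other 12, r was 0.31 for 5430401H09Rik and 0.36 for Apol11b, and it ranged from -0.30 for Pheta2 to 0.67 for Apol8.

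A second list of 55 erythroid genes that are no members had 43 measured, and 28 of these had the same 4 tumours highest, against the 4.49% of all genes. This list too was chosen with earlier results of these data known. The widest spread was that of Tmcc2, Tspan33, Ctse, Sox6, Isg20 and Ypel4. Tmcc2, a coiled-coil protein found in erythroblasts, was at 6.86, 7.04, 7.88 and 0.56 in LAP B-ALL 1 to 4 and at 7.67 in LAP preB-ALL 4, against 0.67 or less in the other 11. Sox6, a silencer of embryonic globin, was at 4.00 to 5.00 in the 4 tumours and at 0.15 or less elsewhere. Adult beta globin Hbb-b2 was at 3.04 to 4.69 in the 4, and the embryonic globins Hba-x and Hbb-y were at -0.06 to 0.21 and 0.00 to 0.41 there. Hbb-bh1, another embryonic globin, also had these 4 tumours highest, at 0.27, 1.53 and 0.24 in LAP B-ALL 1, 2 and 3 and 0.31 in LAP preB-ALL 4, against 0.11 or less in the other 12. Isg20, an exonuclease induced by interferon, was the only gene of this list that limma called between tumours, higher in LAP B-ALL than in LAP/Blnk by 4.19 ± 1.01 (SE, adjusted p = 0.0394).

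Markers of other blood cells moved with the erythroid genes in part, and their part in the result was not tested. Of 12 measured megakaryocyte and platelet genes, 6 had the same 4 tumours highest, among them Ppbp and Gp1bb. The median of this list was 0.58, 0.81, 0.95 and 0.02 in LAP B-ALL 1 to 4, -0.19 to -0.12 in LAP/Blnk, -0.23 to -0.02 in LAP preB-ALL 1 to 3 with 1.65 in LAP preB-ALL 4, and -0.24 to 0.24 in Blnk tumours. Of 17 macrophage genes, 4 had them highest, namely Adgre1, Hmox1, Slc40a1 and Marco, and the list's median was 0.08 to 2.04 in LAP B-ALL, -0.94 to -0.69 in LAP/Blnk, -0.62 to 1.18 in LAP preB-ALL and -0.54 to 0.81 in Blnk tumours. Hmox1 and Slc40a1 break down haem and export its iron in macrophages that eat red cells. The other macrophage genes did not have the 4 tumours highest. Cd163 was at -0.32 in LAP B-ALL 1 and 2.55 in Blnk 5. Vcam1 was at 0.68 to 1.14 in the 4 tumours and 1.28 in Blnk 2. The median of 18 granulocyte genes was high in the 4 tumours too, at 0.89 to 2.04, but reached 1.99 in LAP B-ALL 4 and 2.98 in Blnk 5, and no gene of it had the 4 tumours highest. Of 10 T-cell genes 1, Cd5, and of 9 NK-cell, 12 stromal and 5 dendritic-cell genes none had them highest. The T-cell median was still 0.90, 0.63 and 2.32 in LAP B-ALL 1, 2 and 3 and 0.97 in LAP preB-ALL 4. It was also 1.39 in LAP preB-ALL 2 and 1.43 in Blnk 5. The NK-cell median was 0.15 to 1.39 in the 4 tumours and 0.71 in Blnk 5. The dendritic-cell median was 0.16 to 1.25 in the 4 and 0.55 in LAP preB-ALL 2, and the stromal median -0.36 to -0.05 in the 4.

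**Figure D4:**
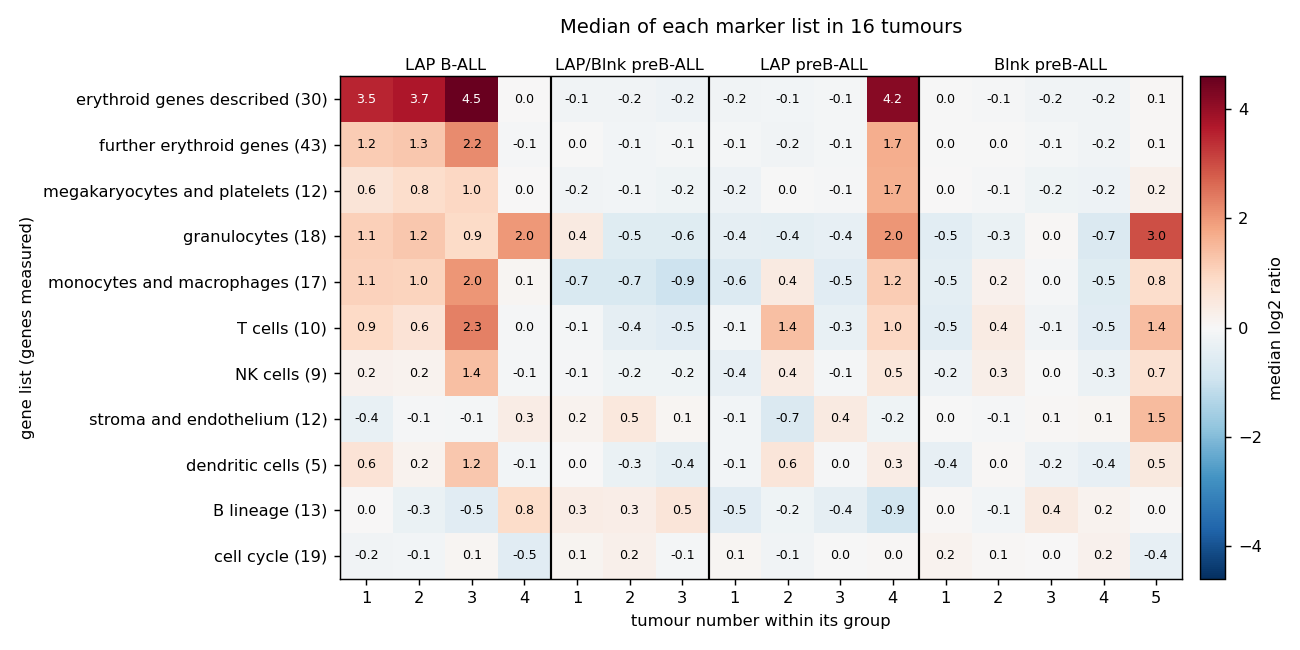
Median log2 ratio to the tumour median (colour and number) of each marker list (rows, with the number of genes measured) in each of the 16 tumours (columns). The 4 tumours with high erythroid medians also have the highest megakaryocyte medians, while granulocyte genes are high in LAP B-ALL 4 and Blnk 5 as well.

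Of 13 B-lineage genes measured, Ebf1, Vpreb1, Vpreb3 and Rag2 had the 4 lowest values in the same tumours, against 2.91% of all genes. Vpreb1, a surrogate light chain of pre-B cells, was at -8.84, -8.78 and -8.97 in LAP B-ALL 1, 2 and 3 and at -8.89 in LAP preB-ALL 4. LAP preB-ALL 2 was at -8.49 with an erythroid median of -0.13, so low Vpreb1 also occurred without high erythroid genes. Other genes of the list were high in the 4 tumours: Ms4a1, the CD20 antigen of mature B cells, was at 3.68, 2.96 and 3.06 in LAP B-ALL 1, 2 and 3 and 1.94 in LAP preB-ALL 4, and Cd24a was at 0.86, 0.62, 1.12 and 0.94 in the same order of tumours. Ms4a1 was also at 1.85 in LAP B-ALL 4 and 3.87 in LAP preB-ALL 2. The whole list's median was -0.53 to 0.85 in LAP B-ALL, 0.30 to 0.55 in LAP/Blnk, -0.86 to -0.18 in LAP preB-ALL and -0.13 to 0.40 in Blnk tumours, and Cd79a, a signal chain of the B-cell receptor, stayed within -0.59 to 0.65 in all tumours. The median of 19 cell-cycle genes was -0.17, -0.12 and 0.10 in LAP B-ALL 1, 2 and 3 and 0.04 in LAP preB-ALL 4, and -0.50 to 0.24 in the other 12, and Ccne1 alone of them had the 4 tumours highest.

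In BKO408 cells LAP left the erythroid genes as a group near their control values. The median difference over the 30 genes was 0.01, against -0.01 over all genes, and 7 of the 30 passed the test, against 22.3% of all genes called. The share is close to that background. Of the 7, 2 were higher, against 10.5% of all genes, and 5 lower, against 11.8%. The groups did not overlap for 7 members, against 26.8% of all genes. These included Tfrc, which differed by 0.26 ± 0.10 (SE, limma adjusted p = 0.111). A further Tfrc probe set was also higher with LAP, at 0.02 to 0.22 against -0.15 to -0.02 in control cells. Another went the other way, at -0.03 to -0.01 in LAP cells and 0.01 to 0.03 in control cells.

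Gfi1b had by far the largest difference of the 30. It was at -0.44, -0.37, -0.45 and -0.39 in the BKO408 LAP cells, against 0.68, 0.48, 0.60 and 0.37 in the control cells. The groups did not overlap, and Gfi1b fell by 0.95 ± 0.06 (SE, limma adjusted p = 6.61e-06), which is 1.93-fold. It kept its call under every alternative tried. The other 5 nuclear proteins differed by -0.01 to 0.13 and did not pass.

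The remaining calls were small. Car2 was at -0.12, -0.11, -0.09 and -0.15 in LAP cells, against 0.11, 0.10, 0.09 and 0.14 in control cells, and fell by 0.23 ± 0.03 (SE, limma adjusted p = 0.000212). Urod was at -0.04, -0.09, -0.04 and -0.10, against 0.09, 0.08, 0.04 and 0.20 in control cells, and fell by 0.17 ± 0.04 (SE, limma adjusted p = 0.0118). Cpox was at -0.07, -0.03, -0.07 and -0.06, against 0.10, 0.03, 0.15 and 0.07 in control cells, and fell by 0.14 ± 0.03 (SE, limma adjusted p = 0.00974). Urod and Cpox are neighbouring steps of haem synthesis, and the groups did not overlap for either. Ank1 was at 0.02, -0.13, -0.12 and -0.11, against 0.14, 0.13, -0.02 and 0.04 in control cells, and fell by 0.16 ± 0.05 (SE, limma adjusted p = 0.0457). The groups overlapped for Ank1, and it lost its call in 9 of 15 alternatives. Rhd was at 0.08, 0.08, 0.13 and 0.20, against -0.15, -0.11, -0.08 and -0.13 in control cells, and rose by 0.24 ± 0.03 (SE, limma adjusted p = 0.000779). Bpgm was at 0.06, 0.05, 0.06 and 0.15, against -0.05, -0.07, -0.07 and -0.05 in control cells, and rose by 0.14 ± 0.03 (SE, limma adjusted p = 0.00915). With the mean of all probe sets of a gene, Cpox, Bpgm and Ank1 no longer passed.

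**Figure D5:**
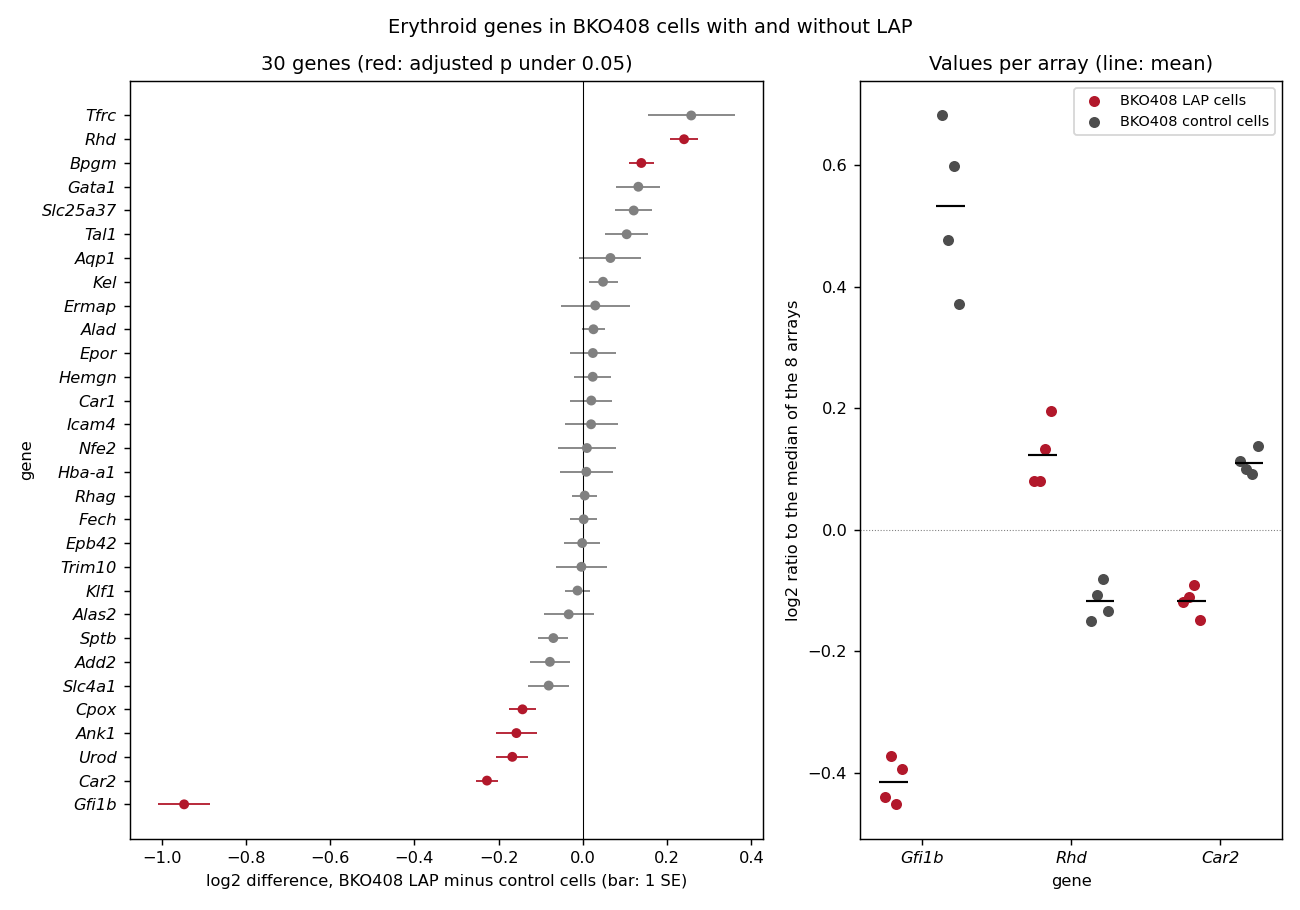
Left, the log2 difference of BKO408 LAP minus control cells (horizontal axis, bars of 1 SE) for the 30 genes, with calls in red. Right, Gfi1b, Rhd and Car2 on each of the 8 arrays, as log2 ratio to the median of the arrays, with lines at the means. Gfi1b lies near -0.95, and the other 29 differences lie between -0.23 and 0.26.

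Of the members that stood far apart in the tumours, Rhd and Bpgm were called in the cell line, and others varied little there. Over the 8 arrays, the values of Klf1 stayed between -0.04 and 0.04, those of Rhag between -0.04 and 0.06 and those of Hemgn between -0.12 and 0.08. Hba-a1 differed by 0.01 ± 0.06 (SE, limma adjusted p = 0.951) and Alas2 by -0.03 ± 0.06 (SE, limma adjusted p = 0.747). Whether these genes were expressed at all in BKO408 cells cannot be read from centred values.

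Of the 43 further erythroid genes, 13 (30.2%) passed in BKO408 cells, against 22.3% of all genes, with 3 higher, against 10.5%, and 10 lower, against 11.8%. Those higher were Slc25a38, a mitochondrial glycine importer of haem synthesis, Flvcr1, a haem and choline transporter, and Bcl11a, the repressor of fetal globin, by 0.27, 0.25 and 0.15. Those lower were Tmcc2, Blvrb, Ube2l6, Slc43a1, Isg20, Zfpm1, Art4, E2f2, Klf13 and Lmo2. Tmcc2 fell by 0.50 ± 0.07 (SE, limma adjusted p = 0.000538) and Blvrb, an enzyme of haem breakdown, fell by 0.41 ± 0.03 (SE, limma adjusted p = 1.87e-05). Lmo2, a partner of TAL1, fell by 0.11. Among the other lists, 7 of 13 B-lineage genes and 11 of 19 cell-cycle genes passed the test as lower with LAP, against 11.8% of all genes, with median differences of -0.20 and -0.11, and their part in these results was not tested. The medians of the remaining lists were between -0.07 and 0.00.

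The effect of LAP in Blnk knockout tumours, LAP/Blnk against Blnk, was set against its effect in BKO408 cells in 1 model of these 4 groups. It differed for 2 of the 30 members, Gfi1b and Fech, against 1.05% of all genes. Gfi1b differed by 0.32 between tumours and by -0.95 between cells, a difference of 1.26 ± 0.21 (SE, limma adjusted p = 0.0122). Fech differed by -0.94 between tumours and by 0.00 between cells, a difference of -0.94 ± 0.11 (SE, limma adjusted p = 0.00119). Neither gene was called between the tumours alone, with limma adjusted p = 1 for both. The error here pools the spread of cell-line arrays with that of tumours: the SD of Fech was 0.22 in LAP/Blnk and 0.07 in Blnk tumours and 0.04 in both groups of cells, and that of Gfi1b was 0.23 and 0.32 in these tumours, against 0.04 in LAP and 0.14 in control cells. With the probe set of each gene chosen by name instead of by spread, Gfi1b was called and Fech was not. A further Fech probe set was at -0.0998 to -0.0035 in LAP cells and 0.0035 to 0.1272 in control cells. Another was at -0.127 to -0.0218 and 0.0218 to 0.0833. The difference of 0.00 between cells thus depends on the probe set. In tumours these further probe sets were at -0.76 to -0.44 and -0.72 to -0.38 in LAP/Blnk, against -0.21 to 0.27 and -0.32 to 0.07 in Blnk.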

How the data were processed

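The data are 24 Affymetrix arrays of total RNA, 8 of BKO408 cells and 16 of tumours. Per the labels, biotin-labelled cRNA was hybridised. The submitters' processing notes name MAS5 alone, with no version or genome build. The authors deposited 1 table of log ratios, read here as log2, in which each of 45141 probe sets has a median of 0 (within 1e-06) over the 8 cell-line arrays and over the 16 tumours. How the values were scaled before centring is unknown, and precision is limited by how few arrays there are.

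Probe sets were named from the platform's annotation of 2016: 28898 had 1 gene symbol, 551 several and 15692 none, and 28689 matched a gene of GRCm38.p6, with 0 symbols updated. The 17097 genes were each read from the most variable probe set. Linear models with moderated tests (limma 3.58.1 in R 4.3.3, two-sided, Benjamini-Hochberg over all genes, threshold 0.05) were fitted separately to the 8 cell-line arrays and to all 16 tumours, and were tested on simulated data. The members and the gene lists were chosen with earlier results of these data known. All members were accounted for, and those past the threshold or with the largest or smallest SD over the tumours were given in every sample. Named besides were further erythroid genes past the threshold or among the 6 of largest SD, and the 10 genes most correlated with the members' median over the tumours. Same-numbered samples did not deviate together in every pair in any comparison (correlations of -0.64 to 0.38), and samples were not paired by number. With so few samples a group, these correlations cannot tell whether a pairing exists. Alternatives were the mean of a gene's probe sets, the probe set chosen by name, the 2 groups alone, a replicate block, a variance trend, array weights, quantile normalization, the 8549 more variable genes, and each replicate left out.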

Additional observations from a re-analysis of the deposited data

Results flagged for a closer look

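LAP preB-ALL 4 lay far above the other 3 tumours of its group in 20 members: Gata1, Klf1, Gfi1b, Hemgn, Epor, Urod, Cpox, Fech, Slc4a1, Rhag, Rhd, Kel, Ermap, Icam4, Epb42, Sptb, Ank1, Add2, Car1 and Trim10. Its median over the 30 genes, 4.20, stood apart in the same way. LAP B-ALL 4 lay far below the other 3 of its group in 3 members, Hemgn, Slc4a1 and Rhag. In the cell line, 1 value stood apart for each of 3 members: Ermap at 0.29 in control array 4, Ank1 at 0.02 in LAP array 1 and Bpgm at 0.15 in LAP array 4. In all, 155 groups of values were examined and 27 stood apart by Dixon's criterion, where chance gives about 1 in 20, and the members of 1 tumour are not independent.

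For Gfi1b, the effect of LAP in Blnk knockout tumours minus that in BKO408 cells was 1.26. For Fech it was -0.94 by the chosen probe set. Both passed limma's test of the difference in a fit that pools the spread of cell-line arrays and tumours, and neither was called between LAP/Blnk and Blnk tumours.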

How the results depend on the processing

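The counts of members called between tumours depend on the setting, and the cause was not tested. For LAP B-ALL over Blnk preB-ALL (0 called), the count was 4 when the other groups were dropped and 29 with array weights. It was 1 with quantile normalization, 5 with the 8549 more variable genes, and 0 to 28 with 1 tumour left out. In the same order, 411, 3619, 181, 302 and 47 to 1835 of all genes were called, against 248 of 17097 in the main fit. For LAP B-ALL over LAP/Blnk preB-ALL (2 called), the members' count was 1 with the mean of the probe sets and 1 with the probe set chosen by name. It was 4 when the other groups were dropped, 1 with a variance trend and 28 with array weights. It was 6 with the 8549 more variable genes, and 0 to 27 with 1 tumour left out. In the same order, 524, 453, 814, 639, 4063, 748 and 246 to 1980 of all genes were called, against 602 in the main fit. For LAP B-ALL over LAP preB-ALL (0 called), the members' count was 0 to 8 with 1 tumour left out, with 0 to 291 of all genes called. For the F-test (0 called), the members' count was 28 with array weights and 1 with quantile normalization. It was 1 with the 8549 more variable genes, and 0 to 23 with 1 tumour left out. In the same order, 3685, 551, 354 and 200 to 1565 of all genes were called, against 453 in the main fit. For the difference of the LAP effects (2 called), the members' count was 1 with the probe set chosen by name. That setting called 187 of all genes, against 180 in the main fit.

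With a replicate block, 7 members were called in BKO408 cells, the same 7 as without it. Over all 17097 genes, 3427 were called with the block and 3820 without it. The block gave 30 members between LAP B-ALL and LAP/Blnk preB-ALL, with 2680 of all genes called. That fit leaves out LAP B-ALL 4, since number 4 has no partner. In each of the other tumour comparisons the block called 0 members and 0 of all genes. No call of a named gene reversed its direction. The members' median difference for LAP preB-ALL over Blnk preB-ALL did change sign, from 0.93 to -0.07 without LAP preB-ALL 4. The comparisons among preB-ALL kept 0 members called under every alternative run. Values flattened at high signal, as in 2 probe sets of Hba-a1, limit the sizes given.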
